A study of Homo sapiens with 6 samples.

Results

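The 10 genes described here encode receptors of the tumour necrosis factor (TNF) receptor superfamily and were taken by gene symbol, whatever their values, from the count tables of 6 libraries. TNFRSF1A, FAS, TNFRSF10A, TNFRSF10B and TNFRSF21 carry a death domain in their cytoplasmic tails. TNFRSF1B, LTBR, CD40, TNFRSF9 and TNFRSF12A have none and recruit TRAF adaptors. All 10 were among the 16390 genes listed, and 8 of them had enough counts for a test. The libraries were made from total RNA of SW780, a line derived from a bladder tumour that the study uses as a luminal cell. In 3 of them the cells had been exposed to RC48 (disitamab vedotin) at 25 µg/ml, an antibody–drug conjugate that carries the microtubule inhibitor monomethyl auristatin E to cells with ERBB2 on their surface. The other 3 are labelled Control, and what the Control cells received and how long the exposure lasted are not given in the sources used here. The labels do not say whether the libraries of a group came from separate cultures, so p-values measure only the spread between these libraries, which may be technical.

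Receptors of this family sit in the plasma membrane and are brought together by trimeric ligands. A receptor with a death domain can gather FADD and the initiator caspases and so start apoptosis, and TNFRSF1A first builds a complex with TRADD, RIPK1, TRAF2 and ubiquitin ligases that switches on NF-κB. Receptors that bind TRAF proteins, such as LTBR, CD40 and TNFRSF12A, can stop the TRAF3-dependent loss of the kinase MAP3K14, after which NFKB2 is processed and pairs with RELB. In epithelial tumour cells TNFRSF10A and TNFRSF10B are known as the receptors through which the ligand TRAIL can kill.

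Each library summed to between 16453233 and 17988030 estimated counts. Of 13055 genes tested, 288 (2.21%) passed an adjusted p of 0.05 in the quasi-likelihood test of edgeR (Benjamini-Hochberg adjusted), 258 of them higher after RC48 exposure (1.98%) and 30 lower (0.230%). An unadjusted p under 0.05 was found for 2499 (19.1%), and DESeq2 called 744 (5.70%). RC48 replicates 1 and 3 differed from Control along the GC content of the transcripts, with a Spearman rho across 13000 genes of 0.76 and 0.59, against −0.017 in RC48 replicate 2. Genes are not independent replicates, and no p-value is given for these. With a correction for GC content 1044 genes (8.00%) passed, 657 higher and 387 lower. The epithelial genes KRT8, KRT18, KRT19, EPCAM and GATA3 were abundant, and of 16 urothelial markers 1 passed the test, KRT20, which fell (34, 35 and 33 counts in Control, 8, 9 and 18 after exposure, edgeR adjusted p = 0.0489, and 0.215, 0.232 and 0.231 without Control replicates 1, 2 and 3). Of the 16, 5 had an unadjusted p under 0.05 (19.1% of all genes), and DESeq2 called 2 (5.70%). All RC48 libraries lay below Control for 4 (14.1% of all genes), namely KRT20, EPCAM, FOXA1 and UPK1B. For 1, KRT14, they lay above it (17.4%). EPCAM averaged 149 CPM in Control against 106 in the RC48 libraries, FOXA1 147 against 109, and UPK1B 103 against 75.5. EPCAM, FOXA1 and UPK1B did not pass (edgeR adjusted p = 0.199, 0.194 and 0.0951). Of 18 leukocyte markers, 13 were listed and 1 rose, ITGAM (0, 5 and 0 counts against 69, 54 and 65, edgeR adjusted p = 0.0074, and 0.0718 without Control replicate 3). The leukocyte marker PTPRC had no count in Control and 1, 1 and 0 after exposure, and the summed level of the leukocyte list was 432.8 to 468.2 CPM (counts scaled to library size) in Control and 437.2 to 476.9 after exposure, of which LCP1 made up the larger part. Without LCP1 the other 12 listed leukocyte markers summed to 34.5 to 35.6 CPM in Control and 42.3 to 79.4 after exposure. Most of that sum was CD68 (16.8 ± 0.272 against 24.2 ± 8.75 CPM, SD, n = 3) and CORO1A (15.4 ± 0.970 against 24.2 ± 9.65 CPM). Neither passed in edgeR, with or without the correction for GC content (adjusted p = 0.235 and 0.192 with it). Of the 9 leukocyte markers tested, 5 (ITGAM, CD68, CORO1A, CD3E and CD14) had all RC48 libraries above Control (17.4% of all genes). An unadjusted p under 0.05 was found for 4 (19.1% of all genes), and ITGAM and CD3E passed with the correction for GC content (8.00% of all genes). Of 10 fibroblast and endothelial markers, 9 were listed and 6 tested, and 0 of the 6 passed in edgeR (2.21% of all genes). An unadjusted p under 0.05 was found for 4 of the 6 (19.1% of all genes), and DESeq2 called 3 (5.70%). The summed levels of the list were 471.6 to 504.7 CPM in Control and 469.4 to 579.7 CPM after exposure. These sums join genes that differed in opposite directions without passing the test, COL3A1 (281 ± 18.2 against 412 ± 47.6 CPM, SD, n = 3) and LUM (168 ± 3.10 against 92.2 ± 23.2 CPM, SD, n = 3). With the correction for GC content 3 of the 6 tested markers passed (8.00% of all genes), COL3A1 higher and PECAM1 and VWF lower. What part any of these markers has in the results below was not tested. In bulk RNA, fewer cells that express a gene and less of its RNA per cell cannot be told apart.

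SW780 cells held mRNA of 8 of the 10 receptors at clear levels in the Control libraries, and a single receptor stood far above the rest. Levels between genes were compared in TPM, which is scaled for transcript length as well as library size. TNFRSF21 (death receptor 6), a receptor known from neurons and lymphocytes, led in Control with 450.1 ± 32.4 TPM (SD, n = 3) and held 41.2% to 43.5% of the summed TPM of the 10 receptors. It was followed by TNFRSF1A, the main receptor for soluble TNF, at 158.1 ± 3.65 TPM. TNFRSF12A, the receptor for TWEAK, had 141.7 ± 2.32 TPM and LTBR, the lymphotoxin β receptor, 141.1 ± 1.49 TPM, and the libraries of these neighbours overlapped. Below them came TNFRSF10B with 98.7 ± 9.50, CD40 with 42.6 ± 1.72, TNFRSF10A with 19.8 ± 2.18 and FAS with 13.3 ± 0.782 TPM. TNFRSF1B, the TNF receptor best known from leukocytes, was at 0.173 ± 0.132 TPM, and TNFRSF9, known as an activation marker of T cells, at 0.0067 ± 0.0115 TPM. In Control, no neighbours in this order other than TNFRSF12A and LTBR had overlapping libraries.

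After RC48 exposure the order was the same except that TNFRSF12A, at 245.1 ± 27.8 TPM, stood above TNFRSF1A, at 149.6 ± 1.94 TPM. The libraries of TNFRSF1A (147.4 to 151 TPM) and LTBR (143.6 to 150.7 TPM) now overlapped, as did those of TNFRSF1B and TNFRSF9, while those of TNFRSF12A and TNFRSF1A did not. TNFRSF12A made up 12.9% to 13.5% of the summed TPM of the 10 receptors in the Control libraries and 17.4% to 21.6% in the RC48 libraries. The 5 death-domain receptors together made up 68.6% to 70.9% in Control and 61.1% to 66.9% after exposure. These shares add up to the whole, so a larger share of TNFRSF12A lowers the others. The summed TPM itself was 1036 to 1119.5 in Control and 1213 to 1257 after exposure, and the groups did not overlap. These sums include TNFRSF12A, whose mean alone went from 141.7 to 245.1 TPM, so they do not show a rise of the receptors as a set. The TPM values were not corrected for GC content here. The TNFRSF12A share was 21.6%, 17.4% and 20.4% in RC48 replicates 1, 2 and 3.

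**Figure D1:**
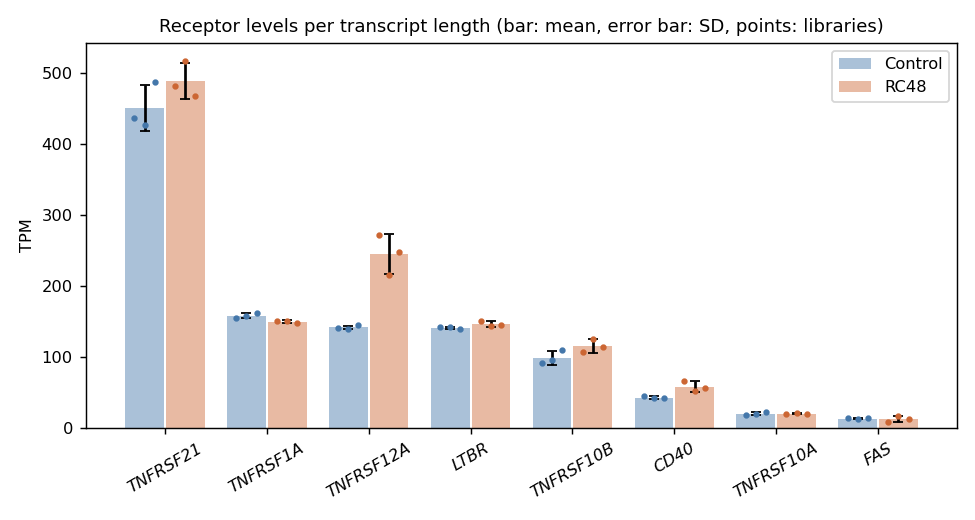
Level of the 8 receptors with enough counts, in TPM, in Control and RC48 libraries (bars are means of 3 libraries, error bars SD, points single libraries). TNFRSF21 is the most abundant in both groups, and TNFRSF12A moves from 141.7 TPM in Control to 245.1 TPM after RC48 exposure.

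RC48 exposure was followed by a rise of 1 of the 8 tested receptors, TNFRSF12A (1.98% of all genes passed as higher). No receptor passed as lower (0.230% of all genes). When any single Control replicate or RC48 replicate 3 was left out, TNFRSF12A did not pass. The other 7 did not pass the test over all genes. At an unadjusted p under 0.05 there were 3, all higher after exposure (TNFRSF12A, CD40 and TNFRSF10B), where 19.1% of all genes reach it, and DESeq2 called 1, where it called 5.70% of all genes. The median log2 fold change of the 8 was 0.17, and 0.016 over all genes tested, of which 51.4% lay above 0. For 7 of the 8 the value was above 0, but that of TNFRSF1A turned negative with other size factors or library sizes alone, and with the correction for GC content 6 of 8 lay above 0, with a median of 0.15. In CPM, 4 of the 8 (TNFRSF12A, CD40, TNFRSF10B and TNFRSF21) had all 3 RC48 libraries above all 3 Control libraries, as in 17.4% of all genes tested, and in 0 of the 8 all 3 RC48 libraries were lower, as in 14.1%. In TPM the receptors concerned differed, with TNFRSF12A, CD40 and LTBR higher (16.0% of all genes) and TNFRSF1A lower (12.6%), while TNFRSF10B and TNFRSF21 overlapped. With 3 libraries against 3, a two-sided exact permutation test of 1 gene cannot give a p-value under 0.1.

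**Figure D2:**
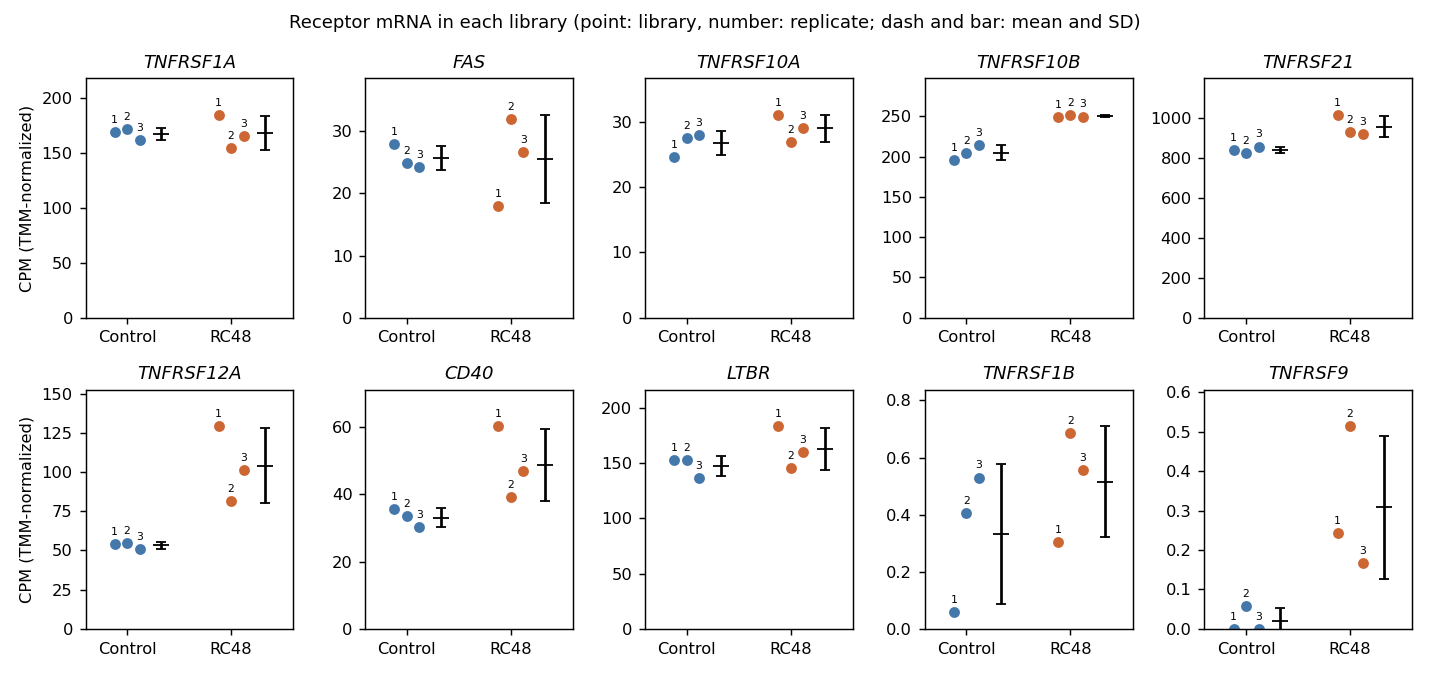
TMM-normalized level of each of the 10 receptors, in CPM, in the 3 Control and 3 RC48 libraries (points, numbered by replicate), with the mean and SD beside them. The RC48 libraries of TNFRSF12A lie between 81.7 and 129 CPM and those of Control between 50.8 and 54.6, while the groups of TNFRSF1A, FAS, TNFRSF10A and LTBR overlap.

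Among the death-domain receptors, none of the 5 passed edgeR's test, 1 had an unadjusted p under 0.05 (19.1% of all genes), and DESeq2 called 0. The median log2 fold change of the 5 was 0.12. With limma's voom and a weight for each library, which called 8018 of all genes, 3 of the 5 passed (TNFRSF10A, TNFRSF10B and TNFRSF21).

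TNFRSF1A (NCBI gene 7132, GRCh38.p14 chr12:6328771-6342076) encodes the receptor through which TNF reaches nearly all cell types. Its level was 169, 171.8 and 161.3 CPM in Control replicates 1, 2 and 3 and 184.6, 154.4 and 165.3 CPM after RC48 exposure. RC48 replicate 1 was the highest of the 6 libraries and RC48 replicate 2 the lowest, so the groups overlapped in CPM. In TPM the RC48 libraries (147.4 to 151) all lay below the Control libraries (154.9 to 162.1). Its log2 fold change was 0.0059 (95% interval −0.26 to 0.27), with an edgeR adjusted p of 0.977. After the correction for GC content it was −0.20 (95% interval −0.39 to −0.018, edgeR adjusted p = 0.162), and the RC48 libraries, at 143.6 to 165.7 CPM, all lay below the Control libraries at 176.5 to 182.2 CPM.

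TNFRSF10B (NCBI gene 8795) and TNFRSF10A (NCBI gene 8797), both on chromosome 8, encode the TRAIL receptors that transmit a death signal. TNFRSF10B was at 195.3, 204.6 and 214.2 CPM in Control and 249.2, 251.9 and 249.9 CPM in the RC48 libraries. All 3 RC48 libraries were higher than any Control library on this scale. In TPM the groups overlapped, with 91.2, 95.5 and 109.4 in Control and 106.7, 125.9 and 114.3 after exposure. The log2 fold change of 0.29 (SE 0.10, 95% interval 0.050 to 0.53) did not pass over all genes (edgeR adjusted p = 0.213, and 0.191 with the correction for GC content). TNFRSF10A was at 24.6, 27.6 and 28.0 CPM in Control and 31.0, 27.0 and 29.1 CPM after exposure, with a log2 fold change of 0.12 (95% interval −0.18 to 0.42, edgeR adjusted p = 0.557). Its groups overlapped. In TPM, TNFRSF10B stood 4.83 to 5.18 times above TNFRSF10A within each Control library and 5.30 to 6.11 times within each RC48 library. These paralogs share sequence with the decoy receptors TNFRSF10C and TNFRSF10D. The counts of TNFRSF10B were not whole numbers in 2 of the 6 libraries (4102.03 and 4409.84 in RC48 replicates 1 and 2). RSEM gives such counts where reads match several genes. The counts of TNFRSF10A, TNFRSF10C and TNFRSF10D were whole in all 6 libraries. Which genes the shared reads of TNFRSF10B also match was not tested, and its level is uncertain to that extent.

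TNFRSF21 (NCBI gene 27242, GRCh38.p14 chr6:47231532-47309905), the most abundant of the receptors, was at 840.9, 824.7 and 857.9 CPM in Control and 1016, 931.8 and 922.2 CPM after exposure. The RC48 libraries all exceeded the Control libraries in CPM, with RC48 replicate 1 the highest. In TPM the groups overlapped (436, 427.2 and 487.2 against 482, 516.8 and 467.9), with RC48 replicate 2 the highest. The log2 fold change of 0.19 (SE 0.10, 95% interval −0.057 to 0.43) did not pass (edgeR adjusted p = 0.317), and with the correction for GC content it was 0.11.

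FAS (NCBI gene 355, GRCh38.p14 chr10:88964050-89017059) encodes the receptor for FAS ligand, which forms a death-inducing complex directly with FADD. It was at 27.9, 24.9 and 24.3 CPM in Control and 17.9, 32.0 and 26.7 CPM after exposure. The lowest and the highest of the 6 libraries were both RC48 libraries, replicates 1 and 2. For FAS the log2 fold change was −0.0074 (SE 0.21, 95% interval −0.50 to 0.49, edgeR adjusted p = 0.983). Leaving out RC48 replicate 1 gave 0.19, and the correction for GC content gave 0.23 (edgeR adjusted p = 0.199). FAS transcripts are GC-poor (42.1%), and the FAS log2 ratio to the Control mean was −0.52 in RC48 replicate 1, as was the median of the 1300 genes of like GC content.

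RefSeq promoters were at hand for 6 of the 10 receptors (TNFRSF1A, TNFRSF1B, TNFRSF9, TNFRSF21, LTBR and FAS), in 8 windows of 250 bases before and 50 bases after an annotated start in GRCh38.p14. Both strands were searched for the κB consensus, the site bound by NF-κB dimers, which 5.91% of 35116 windows of this length in the table hold, and for the AP-1 site TGANTCA, which 7.71% hold. The κB consensus was found in 1 window of TNFRSF9 and 1 of the 3 windows of FAS, and the AP-1 site in the window of TNFRSF9 and another of FAS. The other 5 windows held neither. A match is a description of the letters and not of binding, which was not measured here. The 250 bases before the start are shown for the FAS window with the κB consensus, at chr10:88991181-88991430 on the + strand, where capitals mark the match, which begins at position −157 from the start.
FAS: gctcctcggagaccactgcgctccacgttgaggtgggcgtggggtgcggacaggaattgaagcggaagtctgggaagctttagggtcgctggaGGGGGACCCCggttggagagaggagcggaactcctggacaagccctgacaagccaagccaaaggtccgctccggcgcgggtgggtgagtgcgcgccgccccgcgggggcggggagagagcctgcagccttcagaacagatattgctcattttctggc

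The receptors that bind TRAF proteins held the only receptor that rose. Of these 5, TNFRSF12A, CD40 and LTBR were tested, and the log2 fold changes of these 3 were all above 0, with a median of 0.56 (0.45 with the correction for GC content, where that of LTBR was negative).

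TNFRSF12A (NCBI gene 51330, GRCh38.p14 chr16:3020368-3022383), also called Fn14, is a small receptor that many cells raise after injury or growth factors. It had 940, 942 and 862 counts in Control and 2126, 1431 and 1817 counts in the RC48 libraries, or 54.4, 54.6 and 50.8 against 129, 81.7 and 101 CPM. All 3 RC48 libraries lay above the Control libraries, replicate 1 the highest and replicate 2 the lowest of them. TNFRSF12A rose 1.95-fold, from 53.2 ± 2.15 CPM (SD, n = 3) to 104 ± 23.8 CPM (SD, n = 3), which is a log2 fold change of 0.97 (SE 0.18, 95% interval 0.56 to 1.38, edgeR adjusted p = 0.0374). It passed in 14 of 18 alternatives, with log2 fold changes from 0.64 to 1.11 and adjusted p-values from 1.57e-08 to 0.236 in edgeR, DESeq2 and limma. The 4 in which it did not pass left out Control replicate 1 (edgeR adjusted p = 0.201), Control replicate 2 (0.196), Control replicate 3 (0.236) or RC48 replicate 3 (0.164), with log2 fold changes of 0.93 to 0.98.

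The transcripts of TNFRSF12A are GC-rich (63.7%), and the median log2 ratio of the 1300 genes with the highest GC content was 0.67, 0.0025 and 0.24 in RC48 replicates 1, 2 and 3. The TNFRSF12A log2 ratios in the same libraries were 1.28, 0.62 and 0.92. In each RC48 library TNFRSF12A thus stood above the median of the genes of like GC content. After the correction for GC content its levels were 59.2, 58.6 and 59.0 CPM in Control and 90.1, 89.9 and 95.02 CPM in the RC48 libraries, and the log2 fold change was 0.64 (SE 0.071, 95% interval 0.48 to 0.80, edgeR adjusted p = 0.00121). The RC48 libraries then lay close together and clear of the Control libraries.

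**Figure D3:**
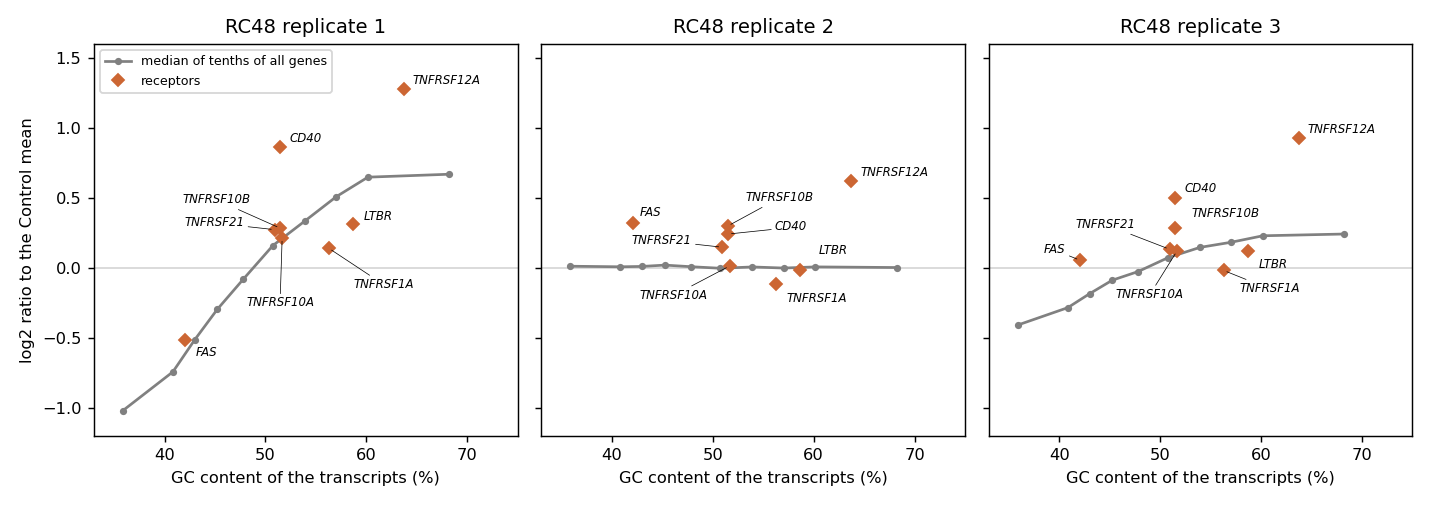
Log2 ratio of the RC48 libraries (1 panel each) to the Control mean against the GC content of the transcripts in percent, for the 8 tested receptors (diamonds) and as medians of 10 equal groups of genes by GC content (grey line). The grey line climbs from −1.02 to 0.67 in replicate 1 and from −0.41 to 0.24 in replicate 3 and is flat in replicate 2. TNFRSF12A, CD40, TNFRSF10B and TNFRSF21 lie above it in all 3, and TNFRSF10A does so narrowly.

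CD40 (NCBI gene 958, GRCh38.p14 chr20:46118314-46129858) encodes the receptor by which T cells instruct B cells and which some carcinomas also carry. It had 35.7, 33.5 and 30.2 CPM in Control and 60.2, 39.2 and 46.9 CPM after exposure. No RC48 library was as low as a Control library, and RC48 replicate 2 came closest. The log2 fold change of 0.56 (SE 0.18, 95% interval 0.14 to 0.97) did not pass over all genes (edgeR adjusted p = 0.184), and with the correction for GC content it was 0.45 (edgeR adjusted p = 0.0606). CD40 passed in 3 of 18 alternatives, namely without RC48 replicate 2 (log2 fold change 0.69, edgeR adjusted p = 0.0247), with limma on the 5 libraries that have a deposited TPM (0.52, adjusted p = 0.0304) and with limma's voom (0.45, adjusted p = 4.2e-05).

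LTBR (NCBI gene 4055, GRCh38.p14 chr12:6375160-6391566) encodes the receptor for membrane lymphotoxin and for TNFSF14, known from the formation of lymph nodes. Its level was 152.6, 153.1 and 136.8 CPM in Control and 183.4, 145.7 and 160.1 CPM after exposure, and the groups overlapped. In TPM they did not, with 139.4 to 142 in Control and 143.6 to 150.7 after exposure. LTBR had a log2 fold change of 0.14 (SE 0.13, 95% interval −0.15 to 0.44, edgeR adjusted p = 0.475) and, with the correction for GC content, −0.11 (95% interval −0.31 to 0.086, edgeR adjusted p = 0.437). Counts of LTBR were not whole in any of the 6 libraries, which RSEM gives where part of the reads also match other genes.

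**Figure D4:**
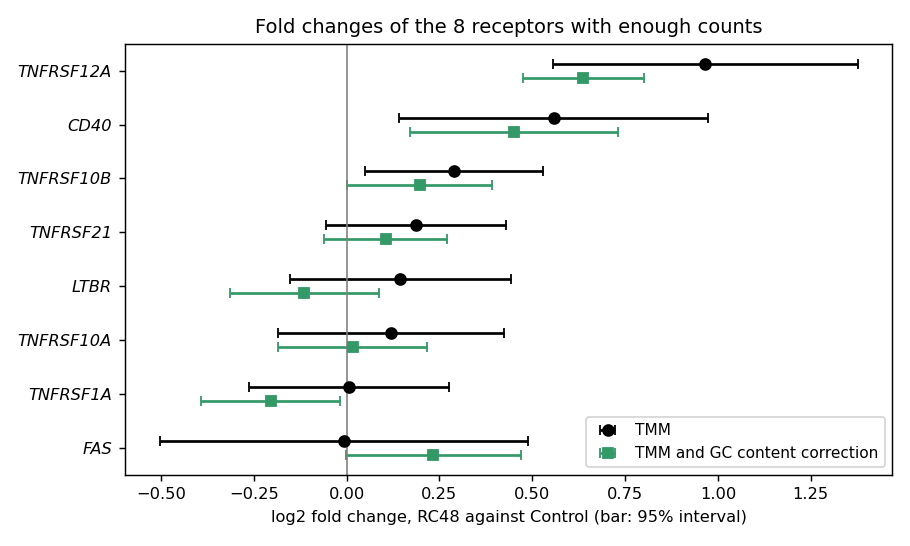
Log2 fold change of the 8 tested receptors, RC48 against Control, with 95% intervals, from edgeR with TMM (circles) and with TMM and the correction for GC content (squares). The interval of TNFRSF12A lies above 0 in both (0.97 and 0.64), and the sign of FAS, LTBR and TNFRSF1A differs between them.

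TNFRSF1B and TNFRSF9 had too few counts for the test. TNFRSF1B (NCBI gene 7133, GRCh38.p14 chr1:12166991-12209220) had 1, 7 and 9 counts in Control and 5, 12 and 10 after exposure. The ratio of the summed counts, scaled to library size, was 1.58, with an exact 95% interval of 0.828 to 3.08 that covers counting error only. TNFRSF9 (NCBI gene 3604, GRCh38.p14 chr1:7915871-7940839) had 0, 1 and 0 counts in Control and 4.32, 9 and 3 after exposure, so all 3 RC48 libraries lay above the Control libraries. Its ratio was 15.9, with an interval of 2.47 to 666. In the same libraries the leukocyte marker PTPRC had at most 1 count. The leukocyte list without LCP1, mostly CD68 and CORO1A, was higher after exposure (42.3 to 79.4 against 34.5 to 35.6 CPM). With the correction for GC content ITGAM and CD3E of this list passed, and CD68 and CORO1A did not (edgeR adjusted p = 0.235 and 0.192). What part the leukocyte markers have in these counts was not tested. Fitted without a filter on low counts, neither TNFRSF1B nor TNFRSF9 passed (edgeR adjusted p = 0.552 and 0.164).

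The promoter of TNFRSF9 was the single receptor window in which both motifs were found. Its 250 bases before the start, at chr1:7940840-7941089 on the − strand, are shown with the matches in capitals. Overlapping κB matches on both strands begin at position −74 and make up the first run of capitals, and the AP-1 site begins at position −44.
TNFRSF9: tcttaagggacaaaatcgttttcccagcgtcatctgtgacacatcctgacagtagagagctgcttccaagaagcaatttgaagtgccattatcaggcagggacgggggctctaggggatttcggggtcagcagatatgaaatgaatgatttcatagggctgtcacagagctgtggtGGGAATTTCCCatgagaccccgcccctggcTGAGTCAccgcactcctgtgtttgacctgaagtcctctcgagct

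The mRNAs of the ligands of these receptors were scarce in Control cells, TRAIL apart. The ones that rose were TNF, a ligand of TNFRSF1A, and LTB, a subunit of an LTBR ligand. Of 13 ligands and decoy receptors, 11 were listed and 8 tested. Of these, 2 rose, LTB and TNF, while 0 fell (2.21% of all genes were called). The 6 others, which had more than 3 counts in Control, had a median log2 fold change of 0.23. LTB, the membrane-bound subunit of the LTBR ligand, had 0, 0 and 0 counts in Control and 180, 185 and 235 after exposure (edgeR adjusted p = 5.56e-04). With no count in Control the ratio has no finite value, and its exact 95% counting interval begins at 160.9 without an upper end. TNF, the ligand of TNFRSF1A and TNFRSF1B, had 0, 0 and 1 counts against 53, 51 and 38, a ratio of 141 with an exact 95% counting interval of 24.9 to 5604 (edgeR adjusted p = 0.00129). Neither could be tested where at least 10 counts were asked of every library.

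None of the other ligands passed. TNFSF10 (TRAIL), the ligand of TNFRSF10A and TNFRSF10B, was the most abundant, with 119.5 ± 8.35 CPM (SD, n = 3) in Control and 97.5 ± 34.0 CPM (SD, n = 3) in RC48 libraries (log2 fold change −0.29, edgeR adjusted p = 0.451). TNFSF12 (TWEAK), the ligand of TNFRSF12A, had 8, 14 and 6.91 counts in Control and 13, 12.85 and 16 after exposure (log2 fold change 0.52, edgeR adjusted p = 0.359). The TNFRSF9 ligand TNFSF9 had 30, 34 and 33 against 54, 54 and 50 counts (log2 fold change 0.69, edgeR adjusted p = 0.135). FASLG had 0, 0 and 0 against 1, 0 and 1 counts and the LTBR ligand TNFSF14 had 0, 1 and 0 against 4, 3 and 5, both too few to test. LTA and the CD40 ligand CD40LG are not among the genes listed. The decoy receptors TNFRSF10C and TNFRSF10D, which bind TRAIL without a working death domain, and TNFRSF6B, a soluble decoy for FAS ligand, had log2 fold changes of 0.34, 0.027 and 0.11 (edgeR adjusted p = 0.30, 0.90 and 0.811).

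Of the 36 adaptors, kinases, ubiquitin enzymes and caspases that act next to the receptors, all were tested, 4 rose and 0 fell (2.21% of all genes were called), with 15 at an unadjusted p under 0.05 (19.1% of all genes) and a median log2 fold change of 0.23. The 4 were called in each of the 18 alternatives. TNFAIP3 (A20), a ubiquitin-editing enzyme that restrains signalling from TNFRSF1A, went from 91, 77 and 88 counts to 875, 1096 and 1044 (log2 fold change 3.54, SE 0.15, edgeR adjusted p = 7.66e-05). BIRC3 (cIAP2), a ubiquitin ligase of the TNFRSF1A complex, went from 41, 32 and 27 to 199, 329 and 287 counts (3.01, SE 0.24, edgeR adjusted p = 9.53e-04). RELB and NFKB2, the pair of NF-κB subunits downstream of LTBR, CD40 and TNFRSF12A, had log2 fold changes of 2.96 (SE 0.22) and 2.02 (SE 0.19), with edgeR adjusted p-values of 6.37e-04 and 0.00181. All RC48 libraries lay above Control for 16 of the 36 (17.4% of all genes) and below it for 3 (14.1%). The 4 called genes are among the 16, which adds no support, since the same libraries gave their calls.

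Of the 9 genes of the death-inducing complex, edgeR called 0, with 3 at an unadjusted p under 0.05 (19.1% of all genes). DESeq2 called 1, CFLAR (5.70% of all genes), and with the correction for GC content 2 passed, CFLAR and CASP10 (8.00% of all genes). CASP10, a caspase related to CASP8, was at 13.3 ± 1.13 CPM in Control and 16.9 ± 1.01 CPM after exposure (log2 fold change 0.35, edgeR adjusted p = 0.244, and 0.0300 with the correction). FADD, the adaptor, was at 72.1 ± 8.49 CPM in Control and 83.4 ± 2.80 CPM after exposure (log2 fold change 0.21, edgeR adjusted p = 0.342). CASP8, the initiator caspase, was at 63.6 ± 3.43 and 54.7 ± 7.06 CPM (−0.22, edgeR adjusted p = 0.352). CFLAR (FLIP), which blocks CASP8 at the receptor, was at 68.2 ± 3.91 and 101 ± 12.6 CPM (0.57, edgeR adjusted p = 0.0886, and 0.0222 with the correction for GC content). TRAF3, the adaptor that keeps MAP3K14 low, was at 56.7 ± 2.81 and 89.4 ± 15.1 CPM (0.66, edgeR adjusted p = 0.0805, and 0.0092 with the correction). With the correction 9 of the 36 passed, all higher (8.00% of all genes passed). The number was 7 without RC48 replicate 1 and 16 without RC48 replicate 2, 14 of them higher. Those 2 fits called 897 of 13147 and 3726 of 13185 genes tested.

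The remaining receptors of the superfamily gave no call in edgeR. Of 15 genes, 13 were listed and 8 tested, with 3 at an unadjusted p under 0.05 (19.1% of all genes) and a median log2 fold change of 0.50. DESeq2 called 3 (5.70% of all genes), as did the GC-corrected edgeR fit (8.00% of all genes), NGFR, TNFRSF14 and TNFRSF19 in both. These had log2 fold changes of 1.61, 0.87 and 0.69 (edgeR adjusted p = 0.0675, 0.0828 and 0.0843). There were 3 calls without RC48 replicate 1, where 897 of 13147 genes passed, and 4 without RC48 replicate 2, where 3726 of 13185 did.

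**Figure D5:**
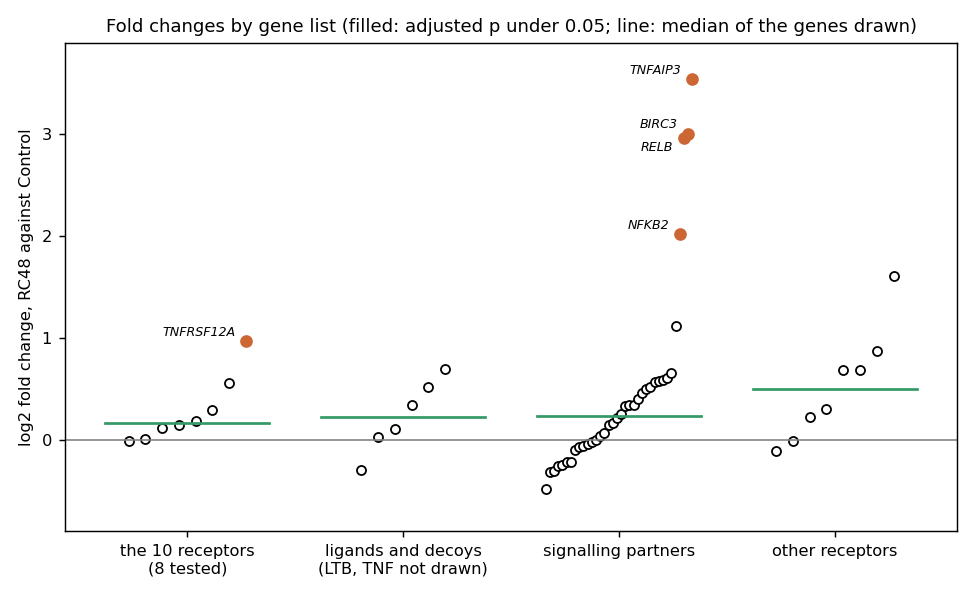
Log2 fold change, RC48 against Control, of each tested gene in 4 lists (points, filled where the edgeR adjusted p is under 0.05), with the median of the genes drawn as a line. LTB and TNF, with at most 1 count in Control, are not drawn, and TNFRSF12A is the filled point among the receptors, below TNFAIP3, BIRC3, RELB and NFKB2 among the signalling partners.

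Across the 6 libraries, the gene whose log2 CPM ran most like that of TNFRSF12A was CDC42EP2, an effector of the GTPase CDC42, with a Pearson r of 0.999 over 6 libraries. CDC42EP2 was at 26.9, 25.7 and 24.9 CPM in Control and 62.9, 40.2 and 48.8 CPM after exposure (log2 fold change 0.97, edgeR adjusted p = 0.0393, and 0.164 to 0.239 without RC48 replicate 3 or any Control replicate). This likeness is a description, since 656 genes had an r above 0.95 and all share the libraries and their GC trend.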

How the data were processed

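Total RNA of SW780 cells was sequenced in 3 Control and 3 RC48 libraries. Read filtering by the authors used SOAPnuke, mapping Bowtie2 and counting RSEM, on hg38 per the submitters' processing notes. Versions, annotation and strand setting are not given in the sources used here. The deposited estimated counts per gene are not normalized (11.7% to 15.0% of genes per library not whole). The deposited TPM values are scaled by the authors for length and depth. No TPM file was used for RC48 replicate 2, whose TPM was computed from counts and the effective lengths implied by the other libraries. The same computation differed from the deposited TPM of RC48 replicate 3 by a median of 0.0098 (log2) over 11982 genes.

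Counts were rounded, filtered with filterByExpr, normalized by TMM and tested with edgeR 4.0.16 (quasi-likelihood, Benjamini-Hochberg over 13055 genes, threshold 0.05, R 4.3.3). The procedure was also run on simulated counts, drawn from Control means with the same dispersion for every gene and no GC trend. That run therefore cannot show how the test behaves under the GC trend of the RC48 libraries. The study's own test was limma on log2(TPM+1). Alternatives were DESeq2 1.42.0, RLE factors, unscaled library sizes, fits without a filter or with a minimum of 10 counts per library, limma 3.58.1 on log2(TPM+1) and log2(TPM+0.1), voom with quality weights, a loess offset (span 0.3) for GC content of GENCODE v29 transcripts (16289 genes), a replicate block and leaving out each library. Positions are those of RefSeq genes (GRCh38.p14), of which 16360 matched by gene number. Summaries used Python 3.11.15, pandas 2.3.3 and scipy 1.17.1. Intervals of count ratios are exact and cover counting error only. Named are the 10 receptors, their ligands, up to 4 called genes per direction in each pathway list, and the gene nearest in pattern to each called receptor. The marker genes, the decoy receptors, FADD, CASP8, CASP10, CFLAR, TRAF3, NGFR, TNFRSF14 and TNFRSF19 were named after their values were seen. The receptors, lists and alternatives were chosen with earlier results of these data known. Promoters were not used for CD40, TNFRSF12A, TNFRSF10A and TNFRSF10B.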

Additional observations from a re-analysis of the deposited data

How the results depend on the processing

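Each group has 3 libraries, and the number of genes called depended on the library left out and on the GC correction, so a receptor that did not pass is not shown to be unchanged. The called genes numbered 288, with 744 in DESeq2, 2894 in limma on the 5 libraries with deposited TPM, 8018 with voom, 1044 with the correction for GC content and 742 with the replicate block and that correction, and 68 to 3726 with 1 library left out. The called receptors numbered 1, with 2 in limma on 5 libraries, 5 with voom and 0 to 2 with 1 library left out. Called ligands and decoys went from 2 to 0 under a minimum of 10 counts per library, since LTB and TNF were then not tested, and to 6 with voom. Called signalling partners went from 4 to 7 in DESeq2, 11 in limma on 5 libraries, 28 with voom, 9 with the correction for GC content, 8 with the replicate block and that correction, and 4 to 16 with 1 library left out. Called other receptors went from 0 to 3, 2, 6, 3 and 2 in the same order, to 1 with the replicate block alone and to 0 to 4 with 1 library left out. The cause of the other moves was not tested.

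The log2 fold change of TNFRSF1A changed sign in 14 of 18 alternatives. It was −0.0058 in DESeq2, with RLE factors and with the minimum of 10 counts, −0.060 with library sizes alone, −0.0081 without a filter, −0.079 in limma on log2(TPM+1) and on log2(TPM+0.1), −0.083 on 5 libraries, −0.036 with voom, −0.20 after GC correction and −0.21 after GC correction with the replicate block, and with 1 library left out it ran from −0.073 (without RC48 replicate 1) over −0.022 (without Control replicate 3) and −0.0068 (without RC48 replicate 3) to 0.062. The value of FAS was 0.015 with voom, 0.23 after GC correction with or without the replicate block, 0.055 without Control replicate 1 and 0.19 without RC48 replicate 1, and that of LTBR −0.11 with the correction and −0.12 with the correction and the block. The other 5 tested receptors kept their sign in all 18 alternatives. The receptors whose groups did not overlap in CPM numbered 4, all higher after exposure (17.4% of all genes). With RLE factors or library sizes alone they numbered 4, all higher. After GC correction they numbered 5, of which 4 were higher and 1, TNFRSF1A, was lower. Shares over all genes were not computed for these other scalings. In TPM, an alternative chosen after seeing the data, there were 3 higher (16.0% of all genes) and 1 lower (12.6%). Of these, 2 (TNFRSF12A and CD40) were also among the 4 in CPM. The order of the 10 receptors by level was the same in counts per effective length.

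Samples with the same replicate number did not deviate together (correlations of deviations 0.0020, −0.13 and 0.0048 for numbers 1, 2 and 3), so the numbers are not read as pairs. With a replicate block 331 genes, 1 receptor and 1 other receptor (NGFR) were called.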
